A study of Homo sapiens with 6 samples.

Results

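The enzymes that build purine and pyrimidine nucleotides from simple precursors were followed in F36P cells, a human leukaemia line with erythroid features. They are the 10 genes PPAT, GART, PFAS, PAICS, ADSL, ATIC, CAD, DHODH, UMPS and CTPS1, taken by symbol from a count table of 16315 genes, and all 10 had a row. The sgHDAC7 cells carried a CRISPR guide RNA against the class IIa histone deacetylase HDAC7, and their genotype is labelled as HDAC7 knockout. The sgNT cells carried a non-targeting guide and are labelled as wild type. Both groups were transduced with puromycin resistance plasmids, selected in 1 µg/ml puromycin for 4 days and sequenced as bulk poly-A RNA, with 3 libraries each. The labels do not say whether the cells were single clones or mixed pools.

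Purine synthesis starts from phosphoribosyl pyrophosphate (PRPP) and assembles the purine ring on the sugar until inosine monophosphate (IMP) is formed. Pyrimidine synthesis builds the ring first, attaches it to PRPP as uridine monophosphate, and then makes the cytidine nucleotides from uridine triphosphate. Dividing blood progenitors and leukaemia cells depend on both routes for RNA and DNA, and MYC is a known activator of many of these genes.

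HDAC7 messenger RNA had 194, 239 and 246 CPM (read counts scaled to library size) in the sgHDAC7 libraries, against 449.9, 460.4 and 462 CPM in the sgNT libraries. All CPM values are scaled by the trimmed mean of M-values (TMM). The sgHDAC7 libraries held 11645003 to 12521195 counts and the sgNT libraries 10039693 to 11149179, so each sgHDAC7 library was the deeper. Replicate 1 of both groups stood apart: the chi-square per degree of freedom was 7.91 to 15.6 for pairs with replicate 1, and 3.24 and 3.53 between replicates 2 and 3. The enzymes' fold changes are therefore also given without replicate 1. Erythroid markers were present, with GATA1 at 198 to 246 CPM and the fetal globin gene HBG2 at 5658 to 13002 CPM over the 6 libraries. The summed CPM of 14 erythroid markers ran from 17976 to 25378 in sgHDAC7 and from 12502 to 18925 in sgNT, and 14 of 14 had a positive log2 fold change. Among all tested genes 49.7% were positive. The sum includes the globin genes HBG1, HBG2, HBA1 and HBA2. Of the 14 erythroid markers, 4 had an unadjusted edgeR p under 0.05, where 9.18% of all tested genes did on the higher side. EdgeR, DESeq2 and limma-voom each called 0 of the 14. That count changed with the treatment of replicates: edgeR called 6 of the 14 higher with the replicate number as a block, 8 with a term for replicate 1 and 8 on replicates 2 and 3 alone, and 0 lower in each, where 3.11%, 5.78% and 9.72% of all tested genes were called higher. In the fit by group alone, TFRC, the transferrin receptor, had the smallest p among them (edgeR adjusted p = 0.178). Of 14 markers of other blood cells, 8 were in the table. The platelet integrin ITGA2B stood at 425 to 557 CPM, while the granulocyte enzyme MPO stood at no more than 2.08 CPM in any library. Of 8 markers listed as non-blood 5 were in the table and 4 were tested, COL1A1, EPCAM, CDH1 and PECAM1. The 3 tools called 0 of them. EPCAM alone had an unadjusted edgeR p under 0.05, and it stood at no more than 1.98 CPM in any library. Of the other blood markers 6 were tested and 0 were called by the 3 tools, none of them at an unadjusted p under 0.05. With the replicate block edgeR called 0 of either list. The term for replicate 1 gave 0 other blood markers and 1 non-blood marker, lower, where 6.81% of all tested genes were called lower. On replicates 2 and 3 alone 2 of each list were called lower and 0 higher, where 10.9% of all tested genes were called lower. The 4 tested non-blood markers all had negative log2 fold changes (median -0.75), where 49.7% of all tested genes had positive values. These 4 summed to 68.8, 73.5 and 72.5 CPM in the sgHDAC7 libraries, against 82.8, 104.8 and 99.1 CPM in the sgNT libraries. What part the erythroid markers have in the values below was not tested.

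Promoter windows are shown because the head-to-head pair PPAT and PAICS shares a single stretch of DNA. RefSeq windows (GRCh38.p14) of 300 bases, 250 before to 50 after a start, were held for 9 of the 10 genes, and ADSL was not among them. The PPAT window lies at chr4:56435566-56435865 on the minus strand. It shares 236 bases with a PAICS window read on the plus strand, and the 2 start sites are 137 bases apart. In the following sequences, written 5′ to 3′, capitals mark the E-box CACGTG, to which MYC and MAX bind. The stretches from ATIC (chr2:215311993-215312108, plus strand) and DHODH (chr16:72008555-72008620, plus strand) are cut around their E-boxes.
PPAT: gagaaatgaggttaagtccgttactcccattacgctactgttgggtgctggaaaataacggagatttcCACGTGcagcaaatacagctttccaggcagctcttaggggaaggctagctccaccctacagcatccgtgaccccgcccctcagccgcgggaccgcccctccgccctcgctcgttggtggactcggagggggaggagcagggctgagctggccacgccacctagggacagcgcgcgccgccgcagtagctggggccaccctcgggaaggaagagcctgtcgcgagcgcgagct
ATIC: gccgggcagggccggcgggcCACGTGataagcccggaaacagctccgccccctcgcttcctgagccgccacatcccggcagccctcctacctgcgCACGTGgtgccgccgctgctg
DHODH: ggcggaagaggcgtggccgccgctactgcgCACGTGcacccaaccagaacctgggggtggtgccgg

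The E-box was found in windows of 4 of the 9 genes, PPAT, PAICS, ATIC and DHODH, and the PPAT and PAICS matches are the same site on opposite strands. It was held by 7.26% of 35116 windows of this length, and by 8.77% of 27305 genes over all their windows. The cAMP response element TGACGTCA was found in 1 of the 9 genes, UMPS, and is shown in capitals in the stretch at chr3:124730375-124730442 (plus strand). That element was found in 1.85% of all windows and in 2.25% of genes over all their windows.
UMPS: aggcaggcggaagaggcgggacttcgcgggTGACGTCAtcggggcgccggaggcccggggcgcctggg

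Other motifs were searched on both strands in the same windows. The ATF4 composite site TGATGNAAT was in 0 of 9 genes, beside 0.991% of windows and 1.22% of all genes over their windows. CCAAT was in 3 of 9 genes (GART, CAD and DHODH), beside 34.6% of windows and 39.7% of all genes. The NRF1 site was in 2 of 9 (PAICS and CTPS1), beside 5.78% of windows and 6.98% of all genes. CACGTG and TGACGTCA share the letters ACGT. A match describes letters in a window.

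All 10 enzymes were measured with 245 or more counts in every library. Divided by the merged exon length of the gene in GENCODE 29, PAICS had the highest level, with 62.8 ± 1.505 CPM per kb in sgHDAC7 and 56.2 ± 2.74 CPM per kb in sgNT (SD, n = 3 each). DHODH had the lowest, with 4.24 ± 0.0574 and 3.69 ± 0.405 CPM per kb in sgHDAC7 and sgNT. In sgNT the order from the top was PAICS, GART, ATIC, ADSL, CAD, PFAS, PPAT, CTPS1, UMPS and DHODH. ATIC and ADSL overlapped there (30.7 to 35.2 and 30.6 to 32.1 CPM per kb), as did PPAT and CTPS1 (12.2 to 13.6 and 11.03 to 14.1). In sgHDAC7 the order was the same except that CTPS1 stood above PPAT, and there GART (36.1 to 37.7) and ATIC (35.6 to 36.6) overlapped too, as did CTPS1 (12.54 to 13.7) and PPAT (11.3 to 13.5). The merged exons include rare isoforms, so the per-length levels carry the uncertainty of that annotation.

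**Figure D1:**
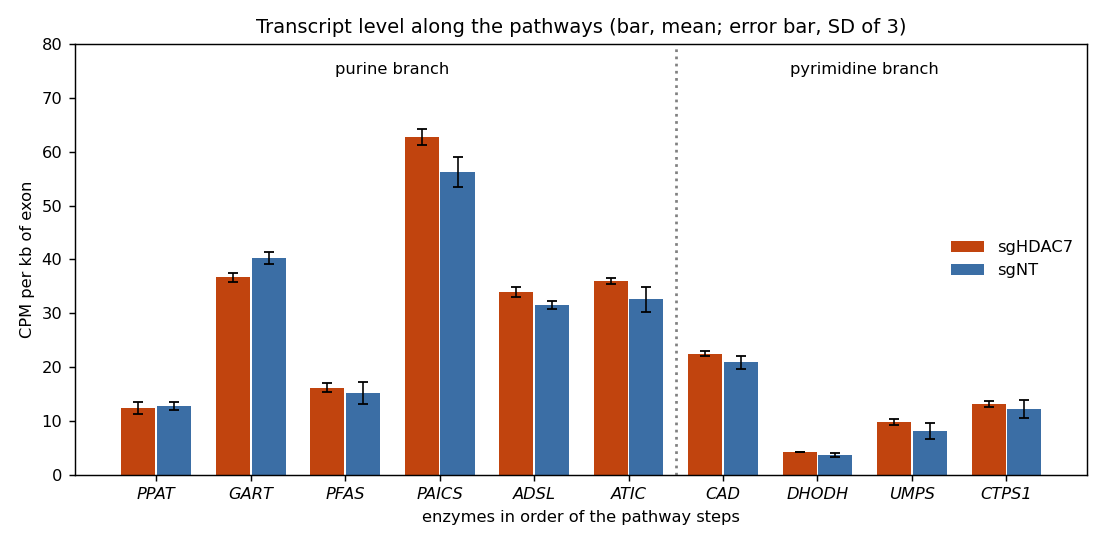
Mean level of each enzyme in CPM per kb of merged exon (vertical axis), in sgHDAC7 and sgNT, with the SD of 3 libraries as error bars. Enzymes run in pathway order along the horizontal axis, and PAICS stands highest at 62.8 in sgHDAC7 and 56.2 in sgNT, with DHODH lowest.

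None of the 10 enzymes was called as different between the guides by the edgeR quasi-likelihood test with group as the only term. The count was 0 higher and 0 lower at an adjusted p under 0.05, where 2.86% of all 13841 tested genes were called, 1.16% higher and 1.7% lower. All 10 passed the filter on low values. Before adjustment 2 of the 10 passed 0.05, PAICS on the higher side and GART on the lower, where 19.2% of all tested genes did (9.18% higher, 9.99% lower). DESeq2 and limma-voom also called 0 of the 10, where they called 718 and 343 of all tested genes. EdgeR with the replicate number as a block called 0 of the 10 too, where 7.21% of all genes were called (3.11% higher, 4.1% lower). Log2 fold changes (sgHDAC7 over sgNT) ran from -0.14 to 0.26, 8 were positive and the median was 0.11, beside a median of -0.0016 and 49.7% positive values over all tested genes. The groups did not overlap for 4 enzymes higher in sgHDAC7 (PAICS, ADSL, ATIC and DHODH) and 1 lower (GART). Among all tested genes, 25.1% did not overlap, 13% wholly higher and 12.2% wholly lower. The labels call the libraries biological replicates without saying that they were grown apart, so the p-values measure the spread between these libraries.

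**Figure D2:**
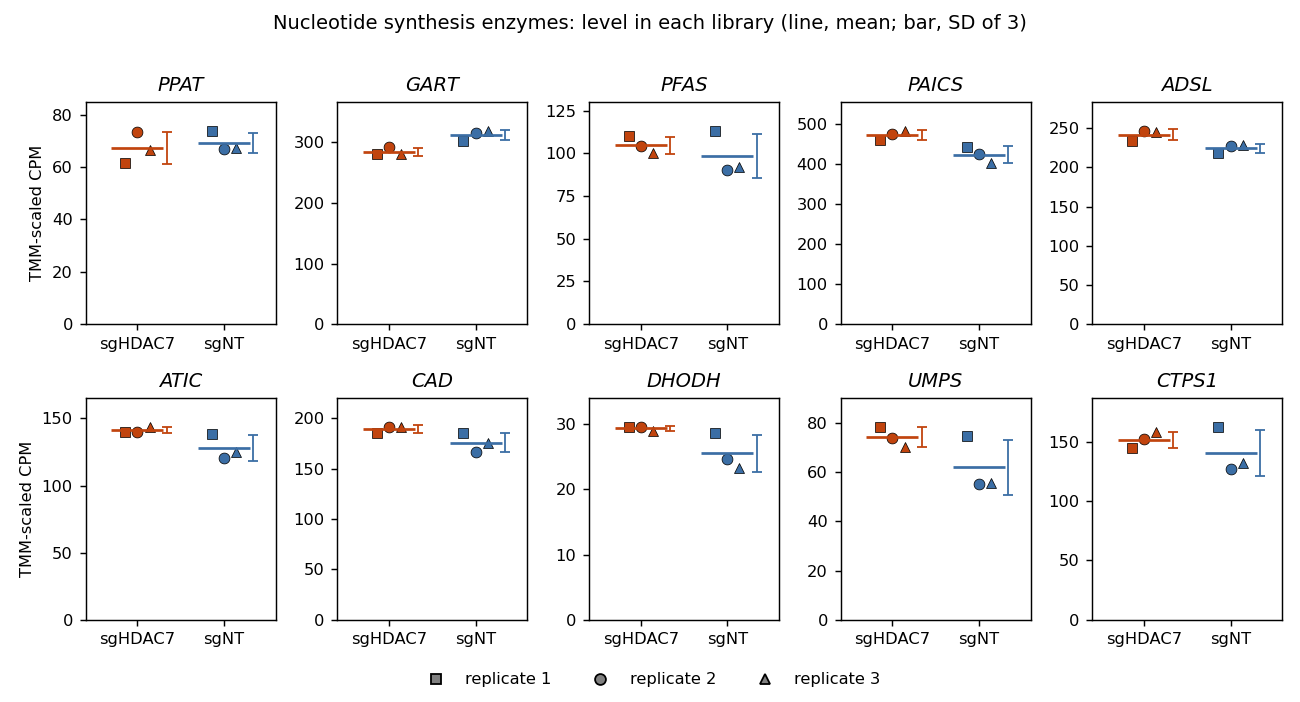
TMM-scaled CPM (vertical axis, from 0) of each enzyme in the 3 sgHDAC7 and the 3 sgNT libraries, with the mean as a line and the SD as a bar. The groups lie apart for GART (lower in sgHDAC7) and for PAICS, ADSL, ATIC and DHODH (higher), and the replicate 1 square is the highest sgNT point for 8 of the 10 enzymes.

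The purine branch opens with PPAT (chr4:56393362-56435615, minus strand in GRCh38, GENCODE 29), the amidotransferase that commits PRPP to purines. PPAT had 61.4, 73.6 and 66.4 CPM in sgHDAC7, against 73.7, 66.7 and 67.2 CPM in sgNT. The groups overlapped, and the log2 fold change was -0.045 ± 0.088 (SE, edgeR adjusted p = 0.831), with a 95% interval of 0.846-fold to 1.11-fold. GENCODE 29 lists 2 pseudogenes of PPAT, so a part of its reads may be shared.

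GART (chr21:33503931-33543491, minus strand), a trifunctional enzyme that acts at several early steps of the purine ring, was the enzyme with the lowest log2 fold change. It had 281, 292 and 280.1 CPM in sgHDAC7, against 303, 316 and 318 CPM in sgNT. Every sgHDAC7 library lay below every sgNT library, with a fitted change of -8.99% (log2 -0.14 ± 0.059, edgeR adjusted p = 0.243). The 95% interval was 0.831-fold to 0.997-fold. The gap was of similar size in each replicate number, with log2 ratios of -0.11, -0.11 and -0.18. GART shares 275 exon bases (3.55% of its merged exons) with SON on the other strand, and the use of strand in the counting is not given in the sources used here.

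PFAS (chr17:8247618-8270491, plus strand), which adds a ring nitrogen from glutamine, had 109.9, 104 and 99.96 CPM in sgHDAC7, against 113, 89.97 and 92.1 CPM in sgNT. The sgNT replicate 1 library was the highest of the 6, and the groups overlapped (log2 0.092 ± 0.094, edgeR adjusted p = 0.647).

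PAICS (chr4:56435741-56464579, plus strand), the bifunctional carboxylase and succinocarboxamide synthetase, had 459.6, 474 and 482 CPM in sgHDAC7, against 442, 426 and 401 CPM in sgNT. All sgHDAC7 libraries were above all sgNT libraries, by 11.6% (log2 0.16 ± 0.062, edgeR adjusted p = 0.202, 95% interval 1.01-fold to 1.23-fold). This was the smallest p among the 10 enzymes. GENCODE 29 lists 7 PAICS pseudogenes, more than for any other of the 10, so reads may have been shared with copies.

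PPAT and PAICS start from the shared stretch of chromosome 4 printed above, and their counts can be set against each other within a library, where no scaling enters. The PAICS to PPAT count ratio was 7.49, 6.45 and 7.26 in sgHDAC7, against 5.99, 6.38 and 5.97 in sgNT. The lowest sgHDAC7 ratio lay just above the highest sgNT ratio. The mean difference was 0.21 on the log2 scale (exact two-sided permutation p = 0.1, the smallest that 3 against 3 libraries allow). This pair was chosen after its values were seen, so the p-value only restates that the groups did not overlap. Among single tested genes 25.1% did not overlap, and ratios of other gene pairs were not computed.

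ADSL (chr22:40346500-40390463, plus strand), the lyase that acts both before IMP and on the way to AMP, had 233, 246 and 245 CPM in sgHDAC7, against 218, 227 and 228 CPM in sgNT. The groups did not overlap, and the log2 ratio was nearly the same in each replicate number, at 0.10, 0.12 and 0.10. The fitted log2 fold change was 0.11 ± 0.060 (edgeR adjusted p = 0.367). A protein-coding gene model on the same strand, AL022238.4, shares 1344 exon bases (18.9%) with ADSL in GENCODE 29.

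ATIC (chr2:215311817-215349773, plus strand), which closes the ring to give IMP, had 139.9, 140.1 and 144 CPM in sgHDAC7, against 138, 121 and 125 CPM in sgNT. The lowest sgHDAC7 library and sgNT replicate 1 were almost level, while sgNT replicates 2 and 3 were lower. The log2 fold change was 0.14 ± 0.070 (edgeR adjusted p = 0.306).

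In the pyrimidine branch, CAD (chr2:27217390-27243943, plus strand) carries the carbamoyl phosphate synthetase, aspartate transcarbamylase and dihydroorotase activities on a single protein. CAD had 185, 192 and 192 CPM in sgHDAC7, against 186, 167 and 175 CPM in sgNT. The replicate 1 libraries were level, and the log2 fold change was 0.11 ± 0.064 (edgeR adjusted p = 0.399).

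DHODH (chr16:72008588-72027664, plus strand), the mitochondrial dehydrogenase that makes orotate and a drug target in myeloid leukaemia, was the least abundant of the 10 per kb. It had 29.6, 29.6 and 28.9 CPM in sgHDAC7, against 28.7, 24.6 and 23.3 CPM in sgNT. The groups did not overlap, by a narrow margin at sgNT replicate 1 (log2 0.20 ± 0.11, edgeR adjusted p = 0.347). Its 245 to 367 counts a library carry a counting error of 5.22% to 6.39%, against 1.30% to 4.13% for the other 9 enzymes.

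UMPS (chr3:124730366-124749273, plus strand), which converts orotate to uridine monophosphate, had 78.4, 73.9 and 70.2 CPM in sgHDAC7, against 74.7, 55.3 and 55.7 CPM in sgNT. The sgNT replicate 1 library lay within the sgHDAC7 range, and sgNT replicates 2 and 3 lay below it. UMPS had the highest fitted change of the 10, 19.9% (log2 0.26 ± 0.12, edgeR adjusted p = 0.265), with a 95% interval of 0.998-fold to 1.44-fold.

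CTPS1 (chr1:40979335-41012565, plus strand), a synthase that makes cytidine triphosphate in proliferating blood cells, had 144, 152 and 158 CPM in sgHDAC7, against 162, 127 and 132 CPM in sgNT. The sgNT replicate 1 library was again the highest of the 6, and the log2 fold change was 0.11 ± 0.095 (edgeR adjusted p = 0.58).

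**Figure D3:**
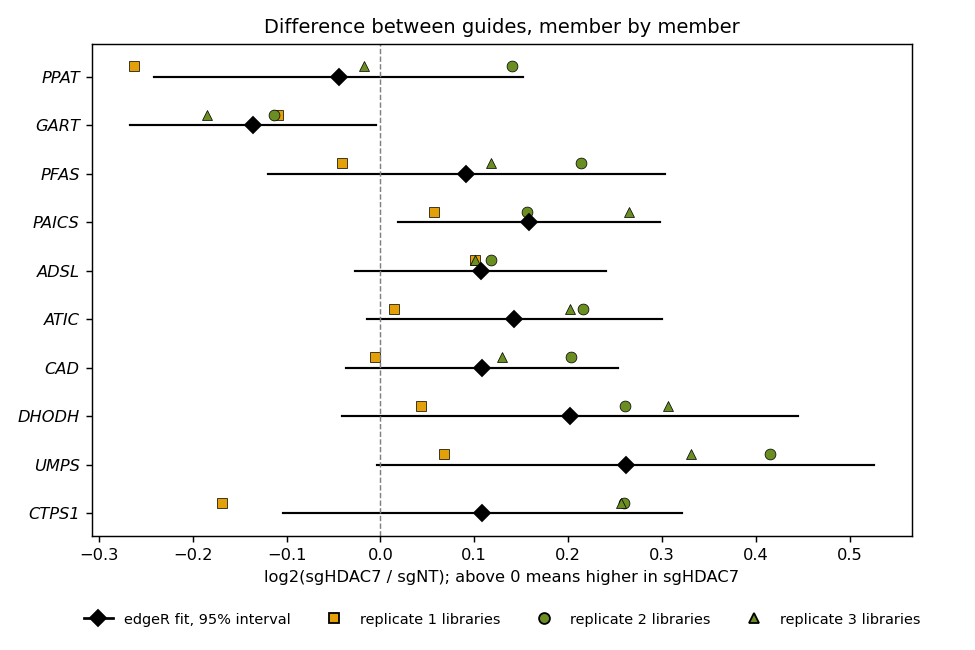
Log2 ratio of sgHDAC7 to sgNT (horizontal axis) for each enzyme, with the edgeR estimate and its 95% interval in black and the ratio within each replicate number as coloured symbols. Replicate 1 ratios lie left of the replicate 2 and 3 ratios for 9 of the 10 enzymes, GART being the exception, and the intervals of GART and PAICS alone do not include 0 before adjustment.

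The sgHDAC7 to sgNT ratio differed with the replicate number. The 10 enzymes had a median log2 ratio of 0.0046 in replicate 1, 0.21 in replicate 2 and 0.17 in replicate 3, beside -0.0046, 0.0002 and 0.0061 over all tested genes. Summed over the 4 pyrimidine enzymes, the level was 438, 447 and 449 CPM in sgHDAC7, against 452, 373 and 386 CPM in sgNT. The 6 purine enzymes summed to 1285, 1331 and 1317 CPM in sgHDAC7, against 1287, 1246 and 1232 CPM in sgNT. In both branches the sgNT replicate 1 library stood within the sgHDAC7 range or just above it, and sgNT replicates 2 and 3 stood below every sgHDAC7 library.

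Without replicate 1, left out because it stood apart in these same data, the comparison of 2 against 2 libraries gave 6 calls. The p-values of this comparison follow that choice, and the fit of all 6 libraries by group alone called 0. PAICS, ATIC, CAD, UMPS and CTPS1 were higher by log2 0.21, 0.21, 0.17, 0.38 and 0.26 (edgeR adjusted p = 0.00517, 0.0105, 0.0332, 0.000629 and 0.00183). GART was lower by log2 -0.15 (edgeR adjusted p = 0.0438). The other 4 did not pass, with log2 fold changes of 0.29 for DHODH, 0.17 for PFAS, 0.11 for ADSL and 0.063 for PPAT (edgeR adjusted p = 0.0649, 0.0672, 0.151 and 0.619). In that fit 20.6% of all tested genes were called, 9.72% higher and 10.9% lower, beside 5 of the 10 enzymes higher and 1 lower. Leaving out sgNT replicate 1 alone gave 2 calls, UMPS (log2 0.42, edgeR adjusted p = 0.00578) and CTPS1 (log2 0.23, edgeR adjusted p = 0.0472). In that fit 1588 of the 13841 tested genes were called, 732 higher and 856 lower. A term for replicate 1 in the fit of all 6 libraries gave 1 call, UMPS (log2 0.27, edgeR adjusted p = 0.0387), where 12.6% of all genes were called (5.78% higher, 6.81% lower). Leaving out any other single library gave 0 calls among the enzymes, where 27 to 228 of all tested genes were called. On counts thinned to the smallest library total, an alternative added after seeing the depths, 0 enzymes were called and 8 had a positive log2 fold change.

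PRPS1, a PRPP synthetase, averaged 103 ± 1.74 CPM across sgHDAC7 libraries and 98.2 ± 3.53 CPM across sgNT libraries (SD, n = 3 each), and its partner PRPS2 averaged 40.4 ± 1.11 and 38.9 ± 0.617 CPM. Of the 5 genes of PRPP synthesis and its partners, CTPS2 among them, 0 were called by edgeR, DESeq2 or limma-voom, and 0 had an unadjusted edgeR p under 0.05 (log2 fold changes -0.040 to 0.064).

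Beyond IMP, 20 genes of the guanine and adenine branches were tested and 1 was called, where 2.86% of all tested genes were. AMPD3, the erythrocyte form of AMP deaminase, fell to 27.1, 25.9 and 23.7 CPM in sgHDAC7, against 35.7, 41.0 and 39.6 CPM in sgNT (log2 fold change -0.60 ± 0.10, edgeR adjusted p = 0.021). IMPDH2, which commits IMP to guanine nucleotides, averaged 242 ± 9.14 CPM over the sgHDAC7 and 231 ± 2.80 CPM over the sgNT libraries, and GMPS, the next enzyme, 174 ± 8.19 and 156 ± 6.76 CPM. Neither passed, and IMPDH1 overlapped between groups with a single high library, sgNT replicate 1 at 53.3 CPM against 26.5 to 35.8 CPM in the others.

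Of 13 genes of deoxynucleotide synthesis, 0 were called by edgeR, 1 by DESeq2 and 0 by limma-voom, and 2 had an unadjusted edgeR p under 0.05. Among all 13841 tested genes these tools called 396, 718 and 343, and 19.2% had an unadjusted edgeR p under 0.05. RRM2, the small subunit of ribonucleotide reductase, came nearest, with 216, 186 and 184 CPM in sgHDAC7, against 173, 112 and 113 CPM in sgNT. Its groups did not overlap (log2 0.56 ± 0.16, edgeR adjusted p = 0.0901). RRM1, the large subunit, averaged 179.9 ± 22.6 CPM over the sgHDAC7 and 176 ± 13.5 CPM over the sgNT libraries, and TYMS, thymidylate synthase, 136 ± 9.89 and 120.0 ± 14.3 CPM.

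The salvage routes reuse preformed bases and nucleosides. Of 11 tested salvage genes, 1 was called, where 2.86% of all tested genes were. DCK, deoxycytidine kinase, fell to 113, 105 and 97.5 CPM in sgHDAC7, against 132, 147 and 135 CPM in sgNT (log2 fold change -0.39 ± 0.078, edgeR adjusted p = 0.0324). HPRT1, which salvages hypoxanthine and guanine, had 102 ± 3.20 and 92.6 ± 1.82 CPM in sgHDAC7 and sgNT (edgeR adjusted p = 0.272). The list's median log2 fold change was 0.12. Breakdown genes (11 tested) and nucleoside transporters (4 tested) held 0 edgeR calls, with 2 and 1 unadjusted edgeR p under 0.05. Among all tested genes 19.2% had one. DESeq2 called 1 breakdown gene and 0 transporters, and limma-voom 0 of either, where they called 718 and 343 of all 13841 tested genes. The smallest p of the 2 lists belonged to ADA, adenosine deaminase (log2 -0.84 ± 0.23, edgeR adjusted p = 0.0814), and SLC29A1, the main equilibrative nucleoside transporter (log2 0.27 ± 0.066, edgeR adjusted p = 0.0657).

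The folate enzymes supply the formyl groups that GART and ATIC place in the purine ring. Of these 3 of 12 were called, where 2.86% of all tested genes were. MTHFD2 and SHMT2, both mitochondrial, fell by 0.83 ± 0.17 and 0.76 ± 0.16 on the log2 scale (edgeR adjusted p = 0.0335 and 0.0395). MTHFD2 had 237, 225 and 257 CPM in sgHDAC7, against 298, 487 and 493 CPM in sgNT, so the sgNT level was lowest in replicate 1. SHMT1, the cytosolic form of SHMT2, rose to 25.0, 30.8 and 24.6 CPM in sgHDAC7, against 17.2, 15.8 and 18.5 CPM in sgNT (log2 fold change 0.64 ± 0.13, edgeR adjusted p = 0.0349). MTHFD1, the cytosolic trifunctional enzyme that makes the formyl donor itself, averaged 287 ± 1.10 CPM over the sgHDAC7 and 275 ± 12.3 CPM over the sgNT libraries (edgeR adjusted p = 0.634).

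Over these 7 lists together, 5 of 76 tested genes were called, 1 higher and 4 lower, with a median log2 fold change of -0.015. The share over all tested genes was 2.86%. There were 0 edgeR calls in the lists when replicate 2 or replicate 3 of either guide was left out, 2 without sgHDAC7 replicate 1 and 12 without sgNT replicate 1. Among all tested genes those fits called 27 to 50, 228 and 1588. Among 10 genes that supply glutamine, aspartate and serine, 1 was called, the serine synthesis enzyme PSAT1 (log2 -1.82 ± 0.37, edgeR adjusted p = 0.0341). DESeq2 called 3 of the 10 and limma-voom 0, where they called 718 and 343 of all 13841 tested genes. Before adjustment 5 of the 10 had an edgeR p under 0.05, where 19.2% of all tested genes did. The log2 fold changes were negative for 10 of 10, with a median of -0.21, where 49.7% of all tested genes had positive values. The difference between the enzymes of the 2 nucleotide branches and these lists was not tested.

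**Figure D4:**
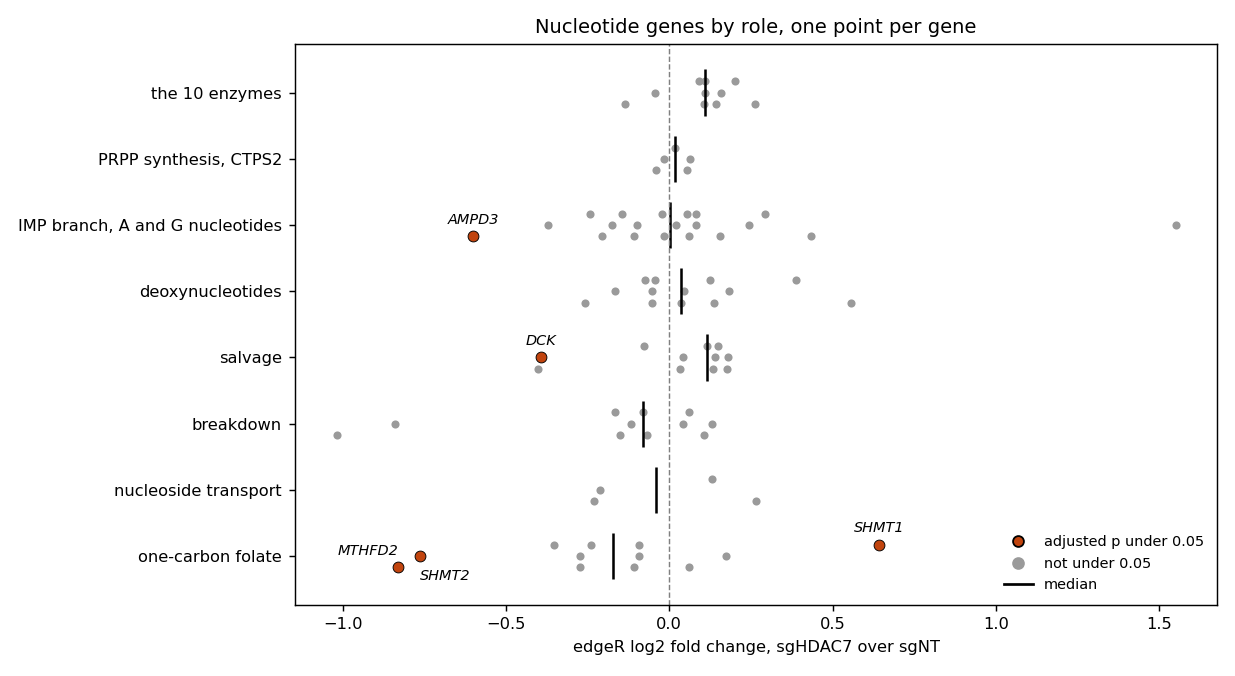
EdgeR log2 fold change of sgHDAC7 over sgNT (horizontal axis) for each tested gene, by role (vertical axis), with medians as black bars and genes under an adjusted p of 0.05 named. The 10 enzymes lie between -0.14 and 0.26 with no called gene, while AMPD3, DCK, MTHFD2 and SHMT2 are lower and SHMT1 is higher.

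Regulators of these enzymes were read beside them. MYC had 645, 774 and 755 CPM in sgHDAC7, against 804, 933 and 962 CPM in sgNT. It was lower in every sgHDAC7 library and did not pass (log2 -0.31 ± 0.092, edgeR adjusted p = 0.102). ATF4 had 401, 405 and 411 CPM in sgHDAC7, against 441, 645 and 669 CPM in sgNT (log2 fold change -0.53 ± 0.13, edgeR adjusted p = 0.0687). Of 18 regulators, the mTORC1 inhibitors DDIT4 and SESN2 were the 2 called, both lower (log2 -3.19 ± 0.60 and -2.43 ± 0.50, edgeR adjusted p = 0.0287 and 0.0384). In that fit 1.7% of all tested genes were called lower. DESeq2 called 4 of the 18 regulators and limma-voom 0, where they called 718 and 343 of all 13841 tested genes. Before adjustment 8 of the 18 had an edgeR p under 0.05, where 19.2% of all tested genes did. In sgNT, MYC, ATF4, DDIT4, SESN2 and MTHFD2 were lower in replicate 1 than in replicates 2 and 3. PPAT, PFAS, PAICS, ATIC, CAD, DHODH, UMPS and CTPS1 were higher in sgNT replicate 1. What part these moves have in the enzymes' values was not tested.

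Replication fork genes, which use the nucleotides, had 22 of 27 positive log2 fold changes, a median of 0.14 and 1 call, the helicase subunit GINS4 (log2 0.50 ± 0.098, edgeR adjusted p = 0.0317). Among all tested genes 49.7% were positive and 1.16% were called higher. The groups did not overlap for 10 of the 27, all higher in sgHDAC7, where 13% of all tested genes lay wholly higher. DESeq2 and limma-voom called 2 each, where they called 718 and 343 of all 13841 tested genes. EdgeR called 5 higher with the replicate block, 7 with the replicate 1 term and 10 on replicates 2 and 3 alone, with 0 lower in each. In those 3 fits 3.11%, 5.78% and 9.72% of all tested genes were called higher. Their median log2 ratios in replicates 1, 2 and 3 were 0.13, 0.14 and 0.12, whereas those of the 10 enzymes were 0.0046, 0.21 and 0.17. In the mean centred profile of the 10 enzymes over 6 libraries, the nearest other genes by root mean square difference of log2 CPM were NASP (0.0145), a histone chaperone, FARSA (0.0170), a subunit of phenylalanyl-tRNA synthetase, and NSF (0.0183), an ATPase of vesicle fusion. Of the 10 enzymes, CAD (0.0274) and ATIC (0.0307) lay closest to their own mean profile, and GART (0.144) and UMPS (0.13) farthest from it.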

How the data were processed

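Bulk RNA-seq libraries of F36P cells (3 sgHDAC7, 3 sgNT) were analysed from the deposited table, whose name says CPM but in which every value is a whole-number count for a gene (100% whole). Per the submitters' processing notes, build hg38 and edgeR 3.32.1 were used. The sources used here do not give the aligner, counter, annotation or strand. Columns named NC were taken as sgNT, since no other group remained. Totals were 10039693 to 12521195 counts a library, so 3 counts are 0.242 to 0.296 CPM (counting error only).

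Counts were tested with edgeR 4.0.16 (R 4.3.3) by quasi-likelihood, with TMM scaling, group alone, two-sided, on the 13841 genes whose mean CPM reached 1. P-values were adjusted by Benjamini-Hochberg over all of them (threshold 0.05). Each standard error is the fold change (log2) divided by the root of F. Ratios within a replicate number use log2(CPM + 0.5). Lengths and positions come from GENCODE 29, promoter windows from RefSeq. DESeq2 1.42.0 and limma 3.58.1 (voom), scaling, filters, replicate terms, thinning and single-library omissions were alternatives. The enzymes and lists were chosen with earlier results of these data known. Named besides the enzymes are each list's called genes, or else its gene with the smallest p, and a fixed set of pathway genes. Scripts were tested on simulated counts.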

Additional observations from a re-analysis of the deposited data

How the results depend on the processing

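Every sign of the 10 enzymes held in all 17 alternatives except for PPAT, which turned positive on replicates 2 and 3 only (log2 0.063), without sgHDAC7 replicate 1 (0.0076) and without sgNT replicate 1 (0.0027), with a range of -0.12 to 0.0076 when single libraries were left out. Of 170 enzyme values, 158 kept direction and side of the threshold, 9 kept direction and passed it, and the 3 PPAT values that turned did not pass it. The number of called enzymes (0) became 1 with the replicate 1 term and 6 on replicates 2 and 3 only, and 0 to 2 when single libraries were left out. The count over all genes (396) was 718 with DESeq2, 998 with the replicate block, 1743 with the replicate 1 term, 2847 on replicates 2 and 3 only, and 27 to 1588 without single libraries. The 5 calls of the wider lists became 8 with the replicate block, 17 with the replicate 1 term, 22 on replicates 2 and 3 only, and 0 to 12 without single libraries. The causes were not tested. Libraries share only a number: deviations of same-numbered libraries correlated at 0.303, 0.107 and 0.0968 for replicates 1, 2 and 3, and sgHDAC7 replicates 2 and 3 each correlated better with the sgNT library of the other number (0.159 and 0.155). The replicate block called 0 enzymes. With 3 libraries a group, the 95% intervals had their lowest limit at 0.831-fold (GART) and their highest at 1.44-fold (UMPS).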
